A study of Mus musculus with 7 samples.

Results

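Nuclear receptors that sense lipids, and the genes through which they drive cholesterol out of cells, were followed in macrophages of the injured mouse sciatic nerve. The 9 genes were picked by name from the 23361 genes quantified, with earlier results of these data known. They are the receptors Nr1h3 (LXRα), Nr1h2 (LXRβ), Pparg (PPARγ), Ppard (PPARδ) and Rxra (RXRα), the cholesterol transporters Abca1 and Abcg1, and the further target genes Mylip and Fabp4. All 9 passed the filter on low counts and were tested.

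Macrophages that ingest cell debris and myelin take up large amounts of cholesterol, which they cannot break down. Oxidised cholesterol activates the liver X receptors (LXR), and fatty acids and their derivatives activate the peroxisome proliferator-activated receptors (PPAR). Both families bind DNA as pairs with a retinoid X receptor and switch on genes for cholesterol efflux, lipoprotein handling and fatty acid use.

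RNASeq had been carried out on cells from wild-type BALB/cJ mice whose left sciatic nerve was cut and repaired with a conduit. At 5, 14 and 28 days after repair, Lin-F4/80+CD14+CD11b+CD16/32+ cells were sorted from the regenerative bridge inside the conduit. Day 5 had 3 libraries, and days 14 and 28 had 2 each, fewer at days 14 and 28 than the study states for a group, and only the libraries listed for the series were analysed. All groups share the injury, the repair and the gate, and no uninjured group was part of the series analysed here. The age of these mice, and whether a library held 1 mouse or a pool, were not given in the sources used here. p-values therefore measure the spread between libraries only. The comparisons ask how gene expression in these cells changed with time after repair.

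Between 18027190 and 35247116 fragments per library were assigned to genes. FPKM values, which are fragments scaled for transcript length and library size, were compared on the log2(FPKM + 1) scale across genes. Pairs from 1 day gave Pearson correlations of 0.9842 to 0.9942. The lowest value belonged to the day 14 pair. Replicate 1 of day 14 correlated with the day 5 libraries at 0.9846 to 0.9866, and replicate 2 of day 14 correlated with the day 28 libraries at 0.9855 to 0.9888. Each day 14 library was thus closer to the libraries of another day than to its partner, so values with a day 14 library left out are given beside day 14 results that moved.

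Of the 9 genes, 4 fell between days 5 and 28 and none rose. These were Nr1h3, Abca1, Abcg1 and Mylip, at an edgeR adjusted p under 0.05. Of the 12858 genes tested, 7.51% were called lower and 7.74% higher in this comparison, 15.2% in all. Since the 9 genes were chosen with earlier results known, such shares describe them and do not test for an excess. The median log2 fold change was -0.23 over the 9 genes and 0.03 over all genes tested. Between days 5 and 14, 1 gene (Abca1) fell, where 4.78% of all genes were called, 2.84% as higher and 1.94% as lower. Between days 14 and 28, 0 of the 9 genes were called with edgeR, where 0.0622% of all genes were called, 0.0311% in each direction. In that last comparison 6 of the 9 had an unadjusted p under 0.05, beside 12.2% of all genes. DESeq2 called 3 of the 9 (Abcg1, Mylip and Fabp4), beside 2.58% of all genes, and limma called none of the 9 and 0 of all genes. No gene of the 9 met a stringent cutoff in any comparison. It asked for an edgeR call, a 2-fold difference between the means and 5 FPKM or more at either day. The stringent DE cutoff of the study used Cuffdiff significance in place of the edgeR call, so the 2 sets can differ. Of all genes, 1.17% met it between days 5 and 14, 0.0467% from day 14 to 28 and 3.52% from day 5 to 28. In bulk RNA, fewer cells that express a gene and less RNA per cell cannot be told apart.

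The libraries of days 5 and 28 did not overlap in FPKM for 7 of the 9 genes, against 51.5% of all genes tested. The exceptions were Ppard and Rxra. For days 14 and 28 the libraries did not overlap for 8 of 9, against 39.0% of all genes, and for days 5 and 14 for 3 of 9 (Nr1h3, Rxra and Abca1), against 43.2%.

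**Figure D1:**
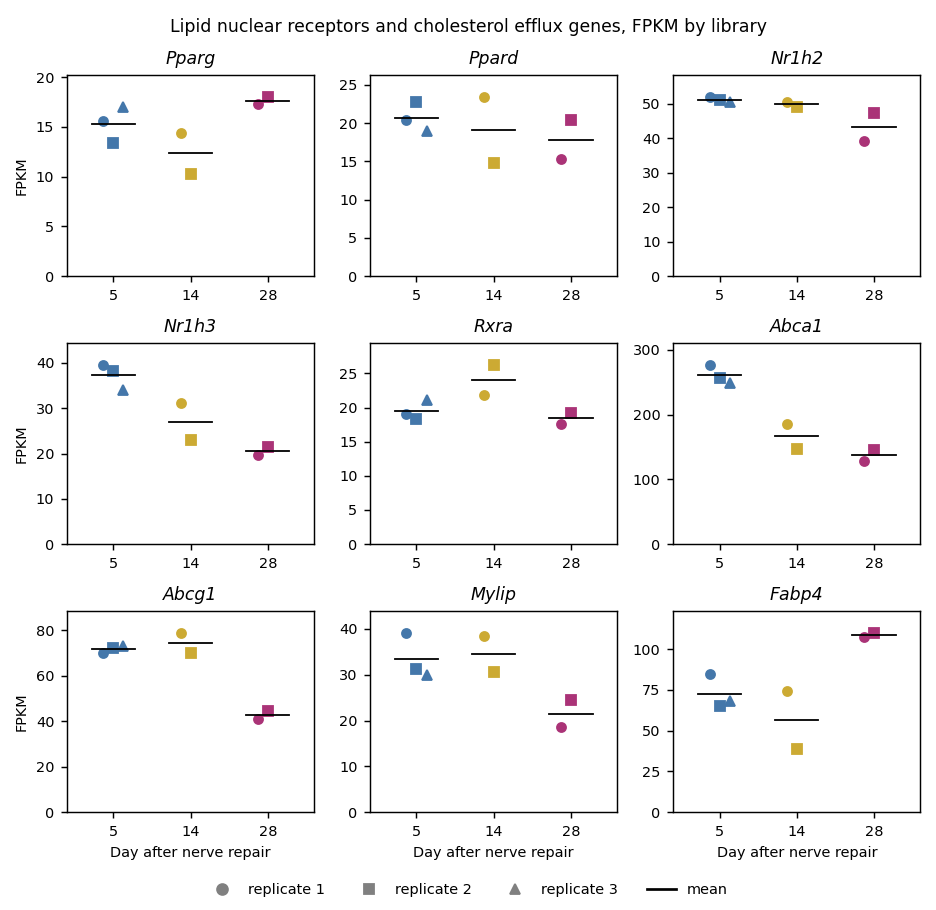
FPKM of each of the 9 genes (vertical axes, linear, from 0) in each library (points) at days 5, 14 and 28 after nerve repair (horizontal axes); horizontal lines mark the mean of each day. The day 28 points lie below all day 5 points for Nr1h3, Nr1h2, Abca1, Abcg1 and Mylip, and above them for Pparg and Fabp4.

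The FPKM scale is adjusted for transcript length, so it allows genes to be ranked within a day. At day 5, Abca1 stood highest at 261 ± 14.6 FPKM (SD, n = 3). Fabp4 at 72.6 ± 10.6 and Abcg1 at 71.9 ± 1.61 came next and overlapped each other, and Nr1h2 followed at 51.2 ± 0.754. Nr1h3 (37.3 ± 2.82) and Mylip (33.4 ± 4.97) overlapped, as did Ppard (20.7 ± 1.95) and Rxra (19.5 ± 1.44). Pparg was lowest at 15.3 ± 1.80.

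At day 28, Abca1 at 137 ± 12.5 FPKM (SD, n = 2) and Fabp4 at 108.5 ± 1.98 did not overlap. Nr1h2 (43.2 ± 5.77) and Abcg1 (42.6 ± 2.62) did. Of the remaining 5 genes, Mylip (21.5 ± 4.26) overlapped Nr1h3 (20.6 ± 1.10), Rxra (18.4 ± 1.12) and Ppard (17.8 ± 3.55). Nr1h3 overlapped Ppard as well and lay above Rxra without overlap. Rxra, Ppard and Pparg (17.6 ± 0.527) each overlapped the next, and Pparg lay below Mylip and Nr1h3 without overlap.

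Nr1h3 encodes LXRα, the LXR form enriched in liver and macrophages. The gene lies at 91184061 to 91202834 of chromosome 2 (GRCm38, as are the other positions; minus strand, ENSMUSG00000002108). Nr1h3 was measured at 39.6, 38.2 and 34.1 FPKM at day 5, 31.1 and 22.9 at day 14, and 19.8 and 21.3 at day 28. Every day 14 library lay under every day 5 library, and both day 28 libraries lay under those of day 14. The fitted log2 fold change of Nr1h3 from day 5 to day 28 was -0.85 (SE 0.15, edgeR adjusted p = 0.00731), and the mean FPKM fell by 44.8%. This call was lost without replicate 1 of day 28 (log2 fold change -0.80, adjusted p = 0.0731) and held when any other library was left out. From day 5 to day 14 the Nr1h3 difference of -0.47 (SE 0.15) had an edgeR adjusted p of 0.0925, which became 0.0116 without replicate 1 of day 14 and 0.439 without replicate 2. The 34 exon bases that Nr1h3 shares with Gm13783 on the same strand are 1.35% of its exon length.

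Nr1h2 encodes LXRβ, which is found in most cell types. The gene lies at 44549616 to 44553951 of chromosome 7 (minus strand, ENSMUSG00000060601). Nr1h2 stood at 51.9, 51.1 and 50.4 FPKM at day 5, 50.4 and 49.1 at day 14, and 39.1 and 47.3 at day 28. Its libraries covered a range of only 1.33 from lowest to highest, the narrowest of the 9 genes, and the day 28 pair was below the rest. The log2 difference between days 28 and 5 was -0.23 (95% interval -0.48 to 0.02, edgeR adjusted p = 0.192), and Nr1h2 was not called in any comparison.

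Pparg encodes PPARγ, a receptor for fatty acid derivatives that is needed for fat cell formation and is also used by macrophages. It lies at 115360951 to 115490399 of chromosome 6 (plus strand, ENSMUSG00000000440). Pparg was measured at 15.6, 13.4 and 16.9 FPKM at day 5, 14.3 and 10.3 at day 14, and 17.3 and 18.0 at day 28. The day 28 pair was the highest of all 7 libraries. Its log2 difference from day 5 to day 28 was 0.22 (95% interval -0.15 to 0.58, edgeR adjusted p = 0.397), and from day 14 to day 28 it was 0.52 (0.12 to 0.93, adjusted p = 0.288). This last difference was 0.77 without replicate 1 of day 14 and 0.31 without replicate 2, and was called in neither case.

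Ppard encodes PPARδ, which is widely expressed and controls fatty acid oxidation genes. It lies at 28232700 to 28301474 of chromosome 17 (plus strand, ENSMUSG00000002250). Ppard gave 20.4, 22.8 and 18.9 FPKM at day 5, 23.4 and 14.8 at day 14, and 15.3 and 20.3 at day 28. The day 14 pair held both the highest and the lowest value of the 7 libraries, so every day overlapped another. The log2 difference from day 5 to day 28 was -0.20 (95% interval -0.64 to 0.24, edgeR adjusted p = 0.518).

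Rxra encodes RXRα, the partner with which LXRs and PPARs bind DNA. It lies at 27676440 to 27762957 of chromosome 2 (plus strand, ENSMUSG00000015846). Rxra was measured at 19.0, 18.4 and 21.1 FPKM at day 5, 21.8 and 26.2 at day 14, and 17.6 and 19.2 at day 28. The day 14 pair was the highest. From day 5 to day 14 the log2 difference was 0.31 (95% interval 0.03 to 0.59, edgeR adjusted p = 0.168), and from day 5 to day 28 it was -0.07 (-0.35 to 0.21, adjusted p = 0.747). The day 14 difference from day 5 was 0.44 without replicate 1 of day 14 and 0.16 without replicate 2, again not called.

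Of the 5 receptors, then, Nr1h3 alone was called, and only between days 5 and 28. Whether it changed more than its relative Nr1h2 was tested on the ratio of their FPKM values in each library. Nr1h3 stood at 0.762, 0.747 and 0.677 of Nr1h2 at day 5, 0.617 and 0.466 at day 14, and 0.505 and 0.451 at day 28. The log2 ratio was 0.61 lower at day 28 than at day 5 (day 28 minus day 5, -0.61). An exact permutation test of the 3 days over the 210 possible arrangements of the libraries gave p = 0.0571, and 0.0857 after adjustment for the 3 ratios tested. The smallest p this design allows is 0.00952. The Pparg to Ppard ratio was 0.767, 0.587 and 0.895 at day 5, 0.613 and 0.697 at day 14, and 1.13 and 0.885 at day 28, with an exact permutation p of 0.181 before and after adjustment.

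**Figure D2:**
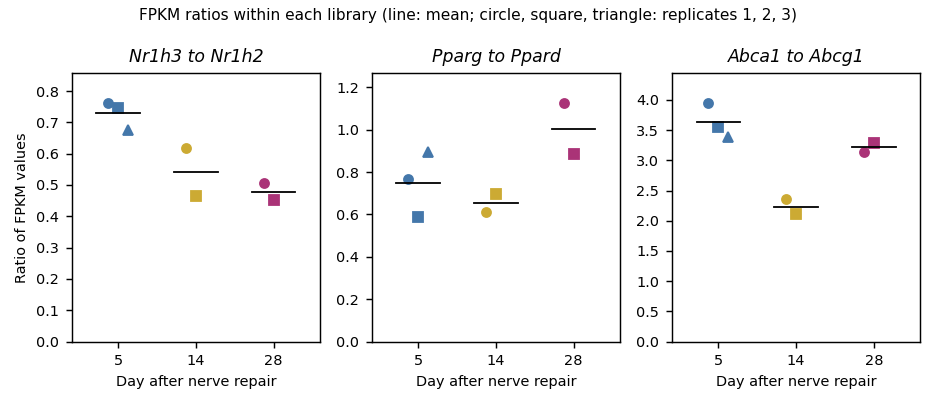
Ratio of FPKM values within each library (points) for Nr1h3 to Nr1h2, Pparg to Ppard and Abca1 to Abcg1 (vertical axes, linear) at days 5, 14 and 28 (horizontal axes). All day 5 libraries lie above all later ones for Nr1h3 to Nr1h2, and the Abca1 to Abcg1 ratio is lowest in the day 14 pair.

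Abca1 encodes the transporter that passes cholesterol and phospholipid to lipid-poor apolipoprotein A-I, the first step in forming HDL. It lies at 53030787 to 53159895 of chromosome 4 (minus strand, ENSMUSG00000015243), and at 28254 to 67817 fragments per library it was the most deeply counted of the 9 genes. Abca1 was measured at 277, 257 and 248 FPKM at day 5, 186 and 147 at day 14, and 128 and 146 at day 28. All later libraries lay under all day 5 libraries, and the day 28 pair lay just under the day 14 pair. From day 5 to day 28 Abca1 fell by 0.91 on the log2 scale (SE 0.14, edgeR adjusted p = 0.00464), and its mean FPKM fell by 47.4%. This call held with each of the 7 libraries left out, with a highest adjusted p of 0.0484. From day 5 to day 14 Abca1 fell by 0.64 (SE 0.14, edgeR adjusted p = 0.0390). The day 14 call held without replicate 1 of day 14 (adjusted p = 0.00541) and was lost when any of the other 6 libraries was left out, with an adjusted p of up to 0.132 without replicate 2 of day 14. From day 14 to day 28 the log2 difference was -0.28 (95% interval -0.62 to 0.06, adjusted p = 0.497), or -0.11 without replicate 1 of day 14 and -0.43 without replicate 2.

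Abcg1 encodes the transporter that moves cholesterol to mature HDL particles. It lies at 31057675 to 31117988 of chromosome 17 (plus strand, ENSMUSG00000024030). Abcg1 gave 70.1, 72.3 and 73.2 FPKM at day 5, 78.8 and 70.1 at day 14, and 40.8 and 44.5 at day 28. The first 5 libraries lay within 70.1 to 78.8 and the day 28 pair lay well below them. Between days 5 and 28 Abcg1 fell by 0.74 log2 units (SE 0.11, edgeR adjusted p = 0.00464), and its mean FPKM fell by 40.7%. The call held with each of the 7 libraries left out (highest adjusted p = 0.0470). Between days 14 and 28 the difference was -0.80 (SE 0.12, edgeR adjusted p = 0.0554). It was called in 3 of 16 alternatives, among them DESeq2 (adjusted p = 2.16e-06). With limma, the replicate block or only those days fitted it was not called. With a library left out it ran from -0.88 to -0.72. The day 5 to day 14 difference was 0.06 (95% interval -0.19 to 0.31).

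The time at which the transporters differed from day 5 was set side by side in their ratio. Abca1 stood at 3.95, 3.55 and 3.39 times the FPKM of Abcg1 at day 5, at 2.36 and 2.10 times at day 14, and at 3.15 and 3.28 times at day 28. The log2 ratio was lower by 0.70 at day 14 than at day 5 (-0.70) and higher by 0.53 at day 28 than at day 14. The exact permutation p over the 3 days was 0.0190, and 0.0571 after adjustment for the 3 ratios, so the unequal course of the transporters did not pass the threshold.

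Mylip encodes an E3 ubiquitin ligase, also called IDOL, that marks the LDL receptor for degradation and is an LXR target. It lies at 45389742 to 45412022 of chromosome 13 (plus strand, ENSMUSG00000038175). Mylip was measured at 39.1, 31.2 and 30.0 FPKM at day 5, 38.6 and 30.5 at day 14, and 18.5 and 24.5 at day 28. Days 5 and 14 overlapped and the day 28 pair lay below both. Mylip fell by 0.63 log2 units from day 5 to day 28 (SE 0.17, edgeR adjusted p = 0.0396), and its mean FPKM fell by 35.7%. This call was lost when any of the 3 day 5 libraries was left out (adjusted p = 0.125, 0.0786 and 0.0637 without replicates 1, 2 and 3) and without replicate 1 of day 28 (log2 fold change -0.44, adjusted p = 0.245). Between days 14 and 28 the Mylip difference was -0.68 (SE 0.19, edgeR adjusted p = 0.189). It passed without replicate 2 of day 14 (adjusted p = 0.0365) and not without replicate 1 (0.408).

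Fabp4 encodes a fatty acid binding protein of fat cells and macrophages and is a PPARγ target. It lies at 10204088 to 10208576 of chromosome 3 (minus strand, ENSMUSG00000062515). Fabp4 gave 84.6, 64.9 and 68.1 FPKM at day 5, 74.1 and 38.9 at day 14, and 107 and 110 at day 28. The day 28 pair was the highest of all libraries and lay close together, while the day 14 pair was spread widely. Its mean FPKM was 49.6% higher at day 28 than at day 5 (log2 fold change 0.59, SE 0.23, edgeR adjusted p = 0.111), which was not called. Without either day 14 library it was called (adjusted p = 0.00932 without replicate 1 and 0.00954 without replicate 2, log2 fold change 0.59 each). From day 14 to day 28 the difference was 0.95 (SE 0.26, adjusted p = 0.184), 1.48 without replicate 1 of day 14 (adjusted p = 0.0140) and 0.56 without replicate 2 (0.131). Its day 14 minus day 5 difference was -0.36 (SE 0.24, adjusted p = 0.391), -0.89 without replicate 1 of day 14 (adjusted p = 0.0104) and 0.03 without replicate 2.

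**Figure D3:**
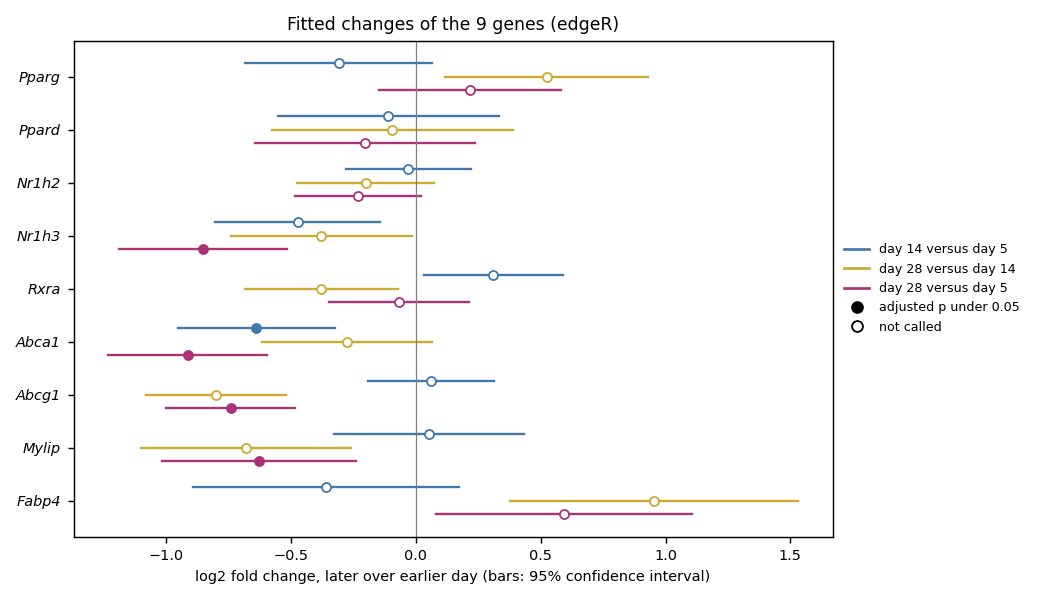
Fitted log2 fold changes (horizontal axis, later day minus earlier day) of the 9 genes in the 3 comparisons; bars are unadjusted 95% intervals of the edgeR fit and filled points have an adjusted p under 0.05. The filled points are Abca1 for days 5 and 14, and Nr1h3, Abca1, Abcg1 and Mylip for days 5 and 28, all below 0.

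The start sites of the genes that fell were then read for receptor motifs. RefSeq promoter windows of 300 bases (250 before the start and 50 after, GRCm38.p6) were found for 7 of the 9 genes, in 11 windows. Abcg1 and Fabp4 were not matched. The windows of Abca1 and Mylip, which both fell, are printed for the 250 bases before the start, 5′ to 3′ on the strand of the gene. Capitals mark TATAAA in both, and in Abca1 also a match to TGACCGNNNNTAACC. This is a shortened, imperfect direct repeat with a spacing of 4 bases, and its letters were searched after the Abca1 window had been seen. The Abca1 window is chr4:53159896-53160145 (minus strand) and the Mylip window chr13:45389492-45389741 (plus strand).
Abca1: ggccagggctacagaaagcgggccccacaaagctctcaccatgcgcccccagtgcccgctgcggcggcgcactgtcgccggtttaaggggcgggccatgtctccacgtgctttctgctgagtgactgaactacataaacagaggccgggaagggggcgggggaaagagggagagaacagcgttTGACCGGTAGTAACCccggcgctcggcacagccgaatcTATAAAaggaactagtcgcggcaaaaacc
Mylip: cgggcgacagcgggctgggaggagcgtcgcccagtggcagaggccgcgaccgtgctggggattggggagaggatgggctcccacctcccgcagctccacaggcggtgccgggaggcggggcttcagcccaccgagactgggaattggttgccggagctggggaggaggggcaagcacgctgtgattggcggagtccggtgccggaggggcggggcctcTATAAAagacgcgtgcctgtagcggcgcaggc

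In Abca1 the repeat lies 67 to 53 bases before the start and TATAAA 29 to 24 bases before it. In Mylip TATAAA lies 32 to 27 bases before the start. Over both strands, TGACCGNNNNTAACC was found in 4 of 32851 RefSeq windows (0.0122%) and TATAAA in 13.6%. The 4 include the Abca1 window, which had been seen before the search, so a match there was fixed in advance. TATAAA was in 3 of the 11 windows here, those of Abca1, Mylip and, on the opposite strand, Pparg, which was not called, and it was in no window of Nr1h3, which fell. The consensus repeat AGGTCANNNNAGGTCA (LXR type, spacing 4) was in 0.0152% of windows and AGGTCANAGGTCA (PPAR type, spacing 1) in 0.0396%, and neither was in a window of these genes. The single motif AGGTCA, contained in both repeats, was in 16.3% of all windows and in 3 of the 11 windows here, 2 of Pparg and 1 of Rxra. These are matches of letters and no binding was measured.

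Beyond the 9 genes, 47 genes of the same pathways were listed, also with earlier results of these data known, and 44 were tested. Rxrg, Ppara and Ppargc1a did not pass the filter on low counts. Between days 5 and 28, 5 of the 44 rose and 8 fell, or 29.5%, beside the 15.2% of all genes tested. Their median log2 fold change was -0.15. Between days 5 and 14, 3 rose and 2 fell (11.4%), beside 4.78% of all genes. Between days 14 and 28 edgeR called 0, beside 0.0622% of all genes. In this last comparison 10 of the 44 had an unadjusted p under 0.05, where 12.2% of all genes did, and DESeq2 called 1, where it called 2.58% of all genes. Of the 13 calls between days 5 and 28, those of Pltp, Lpl and Plin2 held with each library left out, and the other 10 were lost without at least 1 library (Ncoa1 and Apoc2 only without replicate 1 of day 28). Those of Scd1, Ppargc1b, Med1 and Abca7 were lost without any 1 of the day 5 or day 28 libraries, and those of Rara and Lipa without any 1 of day 5 or replicate 1 of day 28. Fabp5 lost its call without replicates 1 or 3 of day 5 or either day 28 library, and Fabp3 without replicate 1 of day 5 or either day 28 library. The adjusted p of these genes then reached at most 0.202, and no call was lost without a day 14 library. All 5 calls between days 5 and 14 were lost without any 1 of the day 5 libraries, and with some of the later libraries left out (highest adjusted p 0.147).

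**Figure D4:**
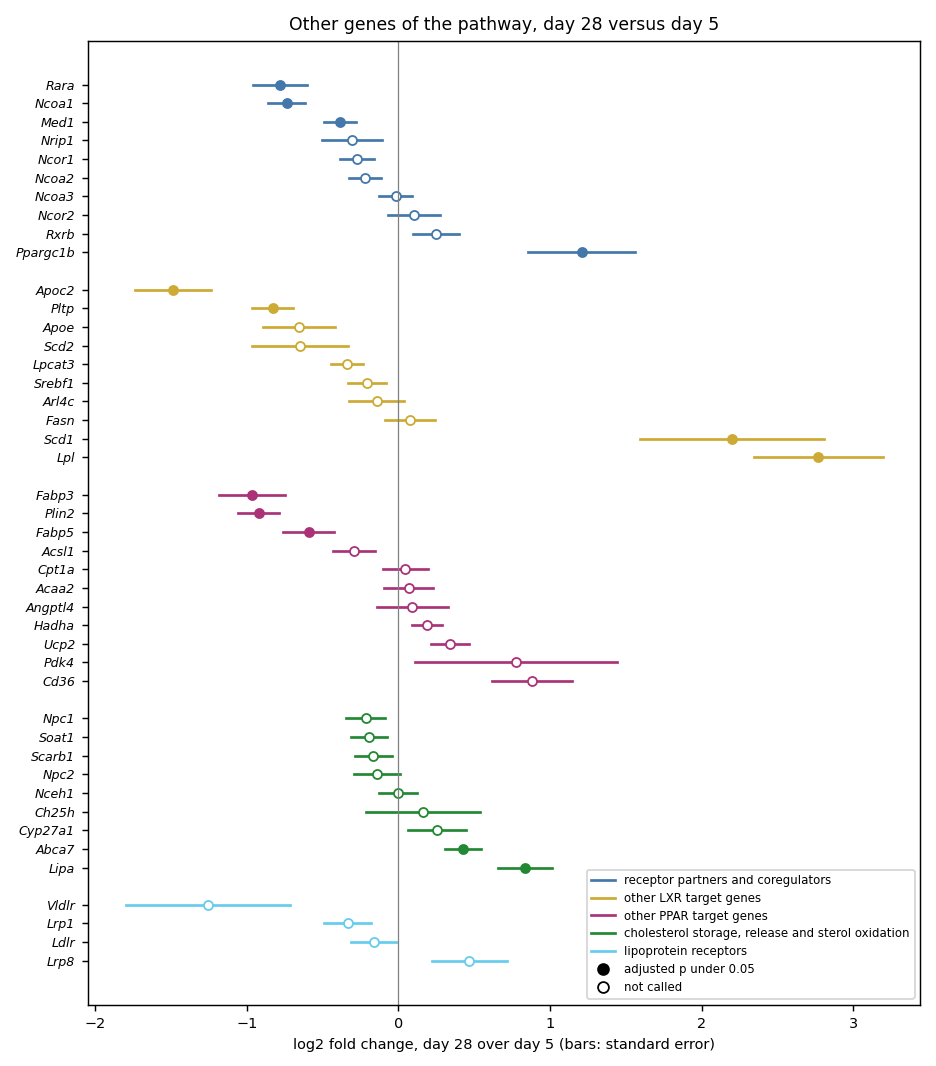
Fitted log2 fold changes between days 5 and 28 (horizontal axis, day 28 minus day 5) of the 44 tested pathway genes, grouped by list; bars are standard errors of the edgeR fit and filled points have an adjusted p under 0.05. Lpl lies farthest to the right at 2.77 and Apoc2 is the lowest called gene at -1.48.

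Among 10 other LXR target genes, 2 rose and 2 fell between days 5 and 28, beside 7.74% and 7.51% of all genes. The median log2 fold change of the 10 was -0.27. Lpl, the lipase that releases fatty acids from lipoproteins, rose most. Lpl was measured at 52.6, 130 and 91.4 FPKM at day 5, 134 and 356 at day 14, and 687 and 547 at day 28 (log2 fold change from day 5 to day 28 2.77, SE 0.42, edgeR adjusted p = 0.00446). Every later library was above every day 5 library, and Lpl met the stringent cutoff.

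Pltp, which transfers phospholipid between lipoproteins, had FPKM values of 1588, 1544 and 1543 at day 5, 1775 and 1390 at day 14, and 874 and 866 at day 28. Its course was flat to day 14 and lower at day 28, and its log2 fold change against day 5 was then -0.83 (edgeR adjusted p = 0.00543). Apoc2, the cofactor of lipoprotein lipase, had 107, 67.0 and 102 FPKM at day 5, 57.8 and 35.6 at day 14, and 31.3 and 34.0 at day 28. It fell by 1.48 (adjusted p = 0.00633) and met the stringent cutoff as well.

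Scd1, a fatty acid desaturase, had 0.204, 0.367 and 0.226 FPKM at day 5 (23 to 35 fragments per library), 0.739 and 4.13 at day 14, and 1.34 and 1.05 at day 28. The day 14 pair was far apart, though both lay above day 5. Its log2 fold change from day 5 to day 14 was 3.22 (edgeR adjusted p = 0.0252), but 1.49 without replicate 2 of day 14 (adjusted p = 0.114) and 3.98 without replicate 1. The day 28 minus day 5 value was 2.20 (adjusted p = 0.0400), and 0.80 with limma on log2(FPKM + 1), where it was not called.

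Apoe encodes an apolipoprotein that accepts cholesterol from macrophages. Apoe was at 19416, 14885 and 14946 FPKM at day 5, 19480 and 12564 at day 14, and 8252 and 12450 at day 28. Its log2 difference of -0.65 from day 5 to day 28 was not called (edgeR adjusted p = 0.0932), although the day 28 pair lay under all other libraries. It was called in 6 of 16 alternatives, among them DESeq2 (adjusted p = 0.0187) and those without either day 14 library. Srebf1, the regulator of fatty acid synthesis, stood at a mean of 23.8, 26.2 and 20.4 FPKM at days 5, 14 and 28, with a log2 difference of -0.21 between days 5 and 28 (adjusted p = 0.285).

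Of 11 other PPAR target genes, 3 fell and 0 rose between days 5 and 28, beside 7.51% and 7.74% of all genes. The lists share no gene, and Lpl was counted with the LXR target genes only. The median log2 fold change of the 11 was 0.07. Plin2, which coats lipid droplets, had 1049, 946 and 1187 FPKM at day 5, 656 and 611 at day 14, and 530 and 579 at day 28. The later libraries were all under the day 5 libraries, and Plin2 fell by 0.73 from day 5 to day 14 (edgeR adjusted p = 0.0231, or 0.0611 without replicate 2 of day 14) and by 0.92 from day 5 to day 28 (adjusted p = 0.00378). The fatty acid binding proteins Fabp3 and Fabp5 fell by 0.96 (adjusted p = 0.0206) and 0.59 (adjusted p = 0.0445) between days 5 and 28.

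Cd36, the scavenger receptor and fatty acid transporter, was measured at 267, 342 and 313 FPKM at day 5, 256 and 467 at day 14, and 689 and 437 at day 28. Its log2 difference of 0.88 from day 5 to day 28 did not pass the threshold (edgeR adjusted p = 0.0512). Cd36 was called in 6 of 16 alternatives, among them DESeq2 (adjusted p = 0.00380) and those without either day 14 library. Angptl4, an inhibitor of lipoprotein lipase, rose from a mean of 4.56 FPKM at day 5 to 8.98 FPKM at day 14 (log2 fold change 0.99, adjusted p = 0.0462; 0.96 without replicate 1 of day 14 and 1.01 without replicate 2, neither called), and its day 28 mean was 4.87 FPKM.

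The 10 tested receptor partners and coregulators had 3 genes that fell and 1 that rose between days 5 and 28, beside 7.51% and 7.74% of all genes. Ncoa1, a coactivator, had 15.3, 14.4 and 14.6 FPKM at day 5, 11.2 and 10.2 at day 14, and 7.77 and 9.80 at day 28, with a log2 fold change of -0.74 from day 5 to day 28 (edgeR adjusted p = 0.00633). Rara, the retinoic acid receptor that also pairs with RXR, fell by 0.78 (adjusted p = 0.0203). Med1, the Mediator subunit that nuclear receptors contact, fell by 0.39 (adjusted p = 0.0371), and by 0.53 between days 5 and 14 (adjusted p = 0.0307, or 0.106 without replicate 2 of day 14). Ppargc1b, a coactivator of mitochondrial genes, rose from 1.18 to 2.73 FPKM (log2 fold change 1.21, adjusted p = 0.0486).

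Of 9 genes for cholesterol storage, release and sterol oxidation, 2 rose and 0 fell between days 5 and 28, beside 7.74% and 7.51% of all genes. Lipa, the lysosomal lipase that frees cholesterol from its esters, was at 211, 224 and 223 FPKM at day 5, 243 and 348 at day 14, and 447 and 328 at day 28 (log2 fold change from day 5 to day 28 0.83, edgeR adjusted p = 0.0171). Its day 28 pair lay above all day 5 libraries and overlapped day 14. Abca7, a transporter related to Abca1, rose by 0.43 (adjusted p = 0.0441). Cyp27a1, which makes the LXR ligand 27-hydroxycholesterol, had 21.5, 23.3 and 23.7 FPKM at day 5 and 48.8 and 29.6 at day 14. Its log2 fold change between them was 0.79 (edgeR adjusted p = 0.0481), with 0.39 without replicate 1 of day 14 (adjusted p = 0.127) and 1.10 without replicate 2, and the call was lost in 13 of 16 alternatives. None of the 4 lipoprotein receptor genes was called in any comparison with edgeR. In each comparison 1 of them had an unadjusted p under 0.05, beside 24% (days 5 and 14), 12.2% (days 14 and 28) and 31.5% (days 5 and 28) of all genes. DESeq2 called Lrp1 between days 5 and 14, a gene outside the naming rule that was chosen after its values were seen.

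The genes with the most similar course to each of the 9 were found by Pearson correlation of log2 TMM-scaled counts over the 7 libraries, among the 7931 genes that reached a mean of 5 FPKM on some day. They are given as a description, since 7 libraries of 3 days share their day and depth. Abca1 was closest to Snx18 and Cmtm3 (both 0.998) and Ier3 (0.996), and Nr1h3 to Stat3 (0.995), Pgs1 and Lcp2 (both 0.994). Abcg1 was closest to Bahd1 (0.995), Ada (0.986) and the lipid transfer gene Pltp (0.983). For Mylip they were Aup1 (0.989), Prex1 and Ctdnep1 (both 0.985), and for Nr1h2 R3hdm2 (0.993), Pop7 (0.988) and Bag6 (0.982). Ppard was led by Oasl1 (0.970) and Rxra by Qpctl (0.973), while Pparg (Atg4c, 0.958) and Fabp4 (Osgin2, 0.960) had the lowest leading values. None of the 9 genes was among the 3 nearest of another.

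Markers of the sorted cells and of others in the nerve were read beside these results. The 8 macrophage markers, of which Lyz2 made up most, summed to 15951 to 18456, 17109 to 22066 and 17852 to 18530 FPKM at days 5, 14 and 28. The day 28 libraries lay below all day 5 libraries for Emr1, Itgam, Cd14 and Cd68, and above them for Fcgr3 and Lyz2. Of the 8, 2 were called lower at day 28 than at day 5, beside 7.51% of all genes. These were Emr1 (F4/80), by 1.01, and Cd14, by 0.76 on the log2 scale (edgeR adjusted p = 0.00650 and 0.0145), and both encode antigens of the gate. Of 6 markers of adipocytes, which also express Fabp4, Adipoq and Lep were at 0 in all libraries. The 6 together summed to 0 to 0.202, 0.183 to 0.293 and 0.756 to 1.04 FPKM on the 3 days. None of the 6 passed the filter on low counts, and the highest count in a library was 11 fragments (Cfd, day 28). The day 28 fragments of Plin1, Cidec and Retn came from 1 library each. The part of adipocytes in the Fabp4 values was not tested.

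The 7 endothelial markers summed to 15.7 to 27.6, 8.15 to 14.6 and 5.60 to 9.30 FPKM on days 5, 14 and 28, highest at day 5. Kdr and Pecam1 made up most of the day 5 sums. Of the 6 tested, Kdr and Pecam1 were called lower and Tek higher at day 28 than at day 5. The median log2 fold change of the 6 between these days was 0.46. The 7 Schwann cell markers, of which Pmp22 made up most, summed to 242 to 294, 159 to 280 and 153 to 156 FPKM. Of the 2 tested, Pmp22 was called lower and Mbp higher at day 28 than at day 5, beside the same shares of all genes. The 6 fibroblast markers stood at 22.5 to 60.9, 62.8 to 175 and 25.6 to 43.4 FPKM, with none called by edgeR. Unadjusted edgeR p-values were under 0.05 for 5 of them (days 5 and 14), 4 (days 14 and 28) and 0 (days 5 and 28). The 6 neutrophil markers stood at 263 to 291, 524 to 534 and 118 to 261 FPKM, mostly from S100a8 and S100a9. Of the 4 tested, edgeR called Mmp8 alone, lower at days 14 and 28 than at day 5, beside 1.94% and 7.51% of all genes. From day 5 to day 14 Mmp8 changed by -1.60 on the log2 scale, and S100a8, S100a9 and Retnlg by 0.83, 1.05 and 0.90. All 4 had unadjusted edgeR p-values under 0.05 between days 5 and 14 and days 14 and 28 (24% and 12.2% of all genes). The 6 lymphocyte markers never exceeded 0.919 FPKM in sum. The part of other cells in the changes of Nr1h3, Abca1, Abcg1 and Mylip was not tested.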

How the data were processed

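Per the submitters' processing notes and the study's methods, the authors trimmed single-end reads of polyA+ libraries with cutadapt 1.8, mapped them to mm10 with TopHat2 2.0.13 and quantified genes with Cuffdiff 2.2.1. Before they deposited the values, the authors had Cuffdiff estimate the expected counts of fragments per gene and library (0.864% are not whole within 0.001). The authors scaled these by 1 factor per library to the deposited signal values. How the authors shared reads between paralogs, and whether strand was used, was not given in the sources used here. From the scaled fragments the authors also derived FPKM, which accounts for transcript length, and deposited it.

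Expected counts were rounded and fitted with edgeR 4.0.16 (TMM, expression filter by day, quasi-likelihood F test, all 7 libraries, day as the only factor). p-values were adjusted by Benjamini-Hochberg over 12858 genes in each of 3 comparisons, and an adjusted p under 0.05 was called. The 3 FPKM ratios were compared by a two-sided exact permutation test. Alternatives were DESeq2 1.42.0, limma 3.58.1 on log2(FPKM + 1) or log2(FPKM + 0.1), RLE or Cuffdiff scaling, no filter, only the days compared, a replicate block (also with day 28 numbers crossed, added after the data were seen), and each library left out. Scripts were tested on simulated data. The members and lists were chosen with earlier results of these data known. Named pathway genes are Apoe, Srebf1, Cd36 and Plin2, up to 3 called genes per list and direction between days 28 and 5, and every gene called in the other comparisons. Gene positions are those of GENCODE on GRCm38. A count in 1 library is precise only to its counting error, and 383 fragments was the lowest value of any of the 9 genes.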

Additional observations from a re-analysis of the deposited data

How the results depend on the processing

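Of 27 results (9 genes in 3 comparisons) under 16 alternatives each, 432 values in all, 391 kept direction and side of the threshold, 16 lost the threshold, 16 gained it and 9 changed sign. The changes of sign were all in uncalled log2 fold changes. With each library left out in turn, the day 14 minus day 5 difference ran from -0.47 to 0.18 for Ppard (highest without day 14 replicate 2), -0.89 to 0.034 for Fabp4 (highest without day 14 replicate 2), -0.021 to 0.14 for Abcg1 (lowest without day 14 replicate 1) and -0.12 to 0.21 for Mylip (lowest without day 14 replicate 1, and -0.0085 without day 5 replicate 3). For Ppard the day 28 minus day 14 difference ran from -0.39 to 0.27 (highest without day 14 replicate 1, and 0.093 without day 28 replicate 1). Mylip at day 14 minus day 5 was -0.017 with the replicate block and -0.016 with the crossed block.

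Of the 9 genes, 1 was called between days 5 and 14, but 2 with no expression filter, 0 with only those days fitted, and 0 to 3 with a library left out. Between days 14 and 28, the count of 0 became 3 with DESeq2 and 3 with no filter, and 0 to 2 with a library left out. Between days 5 and 28, the count of 4 was 3 to 5 under the other alternatives and 2 to 5 with a library left out, the 2 (Abca1 and Abcg1) being without day 28 replicate 1. Of the pathway genes, the 5 called between days 5 and 14 became 8 with DESeq2 or no filter, 1 with limma at either pseudocount, 3 with only those days and 0 to 11 with a library left out. The 0 between days 14 and 28 became 1 with DESeq2, 2 with no filter and 0 to 5 with a library left out. The 13 between days 5 and 28 became 8 with limma at either pseudocount and 3 to 17 with a library left out. The log2 ratio differences between days 28 and 5 ranged from -0.69 to -0.53 (Nr1h3 to Nr1h2), 0.26 to 0.61 (Pparg to Ppard) and -0.22 to -0.11 (Abca1 to Abcg1) with a library left out. With fragments in place of FPKM no ratio passed the threshold. With a library left out a ratio could hardly pass, since the smallest exact permutation p was then 0.0667 (a day 5 library) or 0.0167 (a later one), before adjustment for 3 ratios. Counts over all genes moved as well with a library left out, from 52 to 1728 for days 5 and 14 (614 with all libraries), 0 to 629 for days 14 and 28 (8) and 452 to 2746 for days 5 and 28 (1960). The cause of these shifts was not tested. With 1 library left in a group, that library was assumed to vary like the others.

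The replicate numbers were not a known pairing. Deviations of same-numbered libraries correlated at 0.24 for days 5 and 14, -0.15 for days 14 and 28 and -0.00096 for days 5 and 28. With the replicate block, calls among the 9 genes went to 0 between days 5 and 14, 0 between days 14 and 28 and 3 between days 5 and 28, and among pathway genes to 0, 0 and 5, while calls over all genes went to 6, 0 and 735. With the day 28 numbers crossed they were 0, 0 and 4, and 4, 0 and 11. The 9 genes had at least 383 fragments in every library, and the fit had 4 residual degrees of freedom.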
